A study of Mus musculus with 3 samples.

Results

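The genes of the collagen chains, of the laminin chains and of the nidogens were followed through single-nucleus RNA-seq of mouse brown adipose tissue (BAT). A gene was taken when its symbol was Col, a number, a and a number, when it was Lama, Lamb or Lamc with a number, or when it was Nid1 or Nid2. This gave 57 genes of the 25154 in the 3 tables, made up of 44 collagen, 11 laminin and 2 nidogen genes. The tables listed 55, 57 and 56 of them for the untreated, sham and denervated library, and values below keep that order of libraries. Together they took 0.331%, 0.371% and 0.399% of the unique molecular identifiers (UMIs) of the nuclei. The study looked for signals from endothelial cells to brown adipocytes and for the part of c-Kit in these, with nerve cutting as a way to lower thermogenesis. The labels give adult wild-type C57Bl6 mice for all groups, and the study's methods give interscapular BAT of 8-week-old male C57BL/6J mice. The untreated library came from non-treated mice and the denervated library from mice on day 3 after the left intercostal nerves to the BAT were cut. Tamoxifen is named by the study for the denervated mice and not for the untreated ones, so that nerve cutting and tamoxifen cannot be told apart. The sham library is labelled as a sham operation. The study uses sham for the intact side of operated mice and for separate mice, and the labels do not say which this library is. Each group was 1 library, and the untreated and the denervated one pooled 20 mice each, so no difference below has a replicate check. Nuclei came from the floating layer of tissue digested with collagenase and other enzymes, a layer that holds adipocytes and fragmented vessels.

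Collagens are trimers of alpha chains. Collagen IV forms a sheet-like network, and laminins, each a trimer of an alpha, a beta and a gamma chain, form the other network of the basement membrane, the thin matrix that underlies endothelium and wraps pericytes, smooth muscle and every adipocyte. Nidogens link both networks, while collagens I, III and V build the fibrils of the interstitium and collagen VI a beaded network next to the basement membrane.

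After filtering, 10497, 11759 and 9571 nuclei remained, with a median of 1007, 761 and 700 UMIs. Clusters, made with all 57 genes withheld, were named from marker lists. Adipocyte-like nuclei numbered 4794, 4385 and 5884, endothelial-like nuclei 4838, 5255 and 1903 and pericyte-like nuclei 532, 1218 and 643. The smooth muscle-like (72, 276 and 38), fibroblast-like (28, 53 and 78) and immune-like (71, 67 and 260) groups were small, so that their values carry wide intervals. Median UMIs in endothelial-like nuclei were 660.5, 511 and 369, lowest in the denervated library. The mitochondrial share of UMIs was 9.45%, 12.9% and 5.50% in endothelial-like and 3.16%, 6.40% and 1.86% in adipocyte-like nuclei, highest in the sham library. UMIs of other types were present in every group. The adipocyte marker list stood in endothelial-like nuclei at 10.7%, 9.80% and 13.5% of its level in adipocyte-like nuclei, and the endothelial list stood in adipocyte-like nuclei at 2.41%, 3.23% and 2.23% of its own. The immune-like nuclei of the sham library held the endothelial list at 40.0% of its own level. The libraries shared 251 to 278 cell labels by pairs, of which 110 to 135 were among nuclei. Levels are UMIs per 1000000 UMIs of a nucleus type in a library, abbreviated CPM, and intervals are exact 95% Poisson intervals, or exact conditional binomial intervals for a log2 ratio of levels. They cover counting error only. A gene entered a comparison with at least 20 UMIs over both sides, and was called past the fold where its log2 ratio was at least 1 in size and its interval left out 0. Levels of different genes were not ranked.

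The genes fell into sets by the nucleus type in which they were highest. By library, 19, 19 and 19 of the 57 were highest in fibroblast-like nuclei, 8, 7 and 7 in pericyte-like, 8, 8 and 7 in adipocyte-like, 6, 3 and 5 in endothelial-like and 3, 7 and 3 in smooth muscle-like nuclei. Immune-like nuclei were highest for 0, 0 and 2 genes. A further 13, 13 and 14 genes were not placed, since the type with their highest level held under 3 UMIs. Some of these were well counted over the 3 libraries, such as Col23a1 (749 UMIs) and Col25a1 (638). In the untreated library their highest level was 1 UMI in a small type. Schwann-like nuclei were left out of this placing and were above the type named for some genes, such as Col18a1 at 346, 327 and 923 CPM, and in the untreated library Col5a1, Col5a3, Lama4 and Col28a1. In all 3 libraries, 13 genes were placed in fibroblast-like nuclei (Col1a1, Col1a2, Col3a1, Col4a4, Col5a1, Col5a2, Col5a3, Col6a1, Col6a2, Col6a3, Col14a1, Col15a1 and Lama2), 4 in pericyte-like nuclei (Col4a2, Col8a1, Col13a1 and Lamc3), 3 in smooth muscle-like nuclei (Col18a1, Lama5 and Lamb2), 2 in adipocyte-like nuclei (Lama4 and Lamb3) and 1 in endothelial-like nuclei (Col28a1). Some of these leads are within counting error, as for Col6a1 in the denervated library, at 464 CPM in fibroblast-like and 464 in pericyte-like nuclei. Small groups can also lead on few UMIs, as fibroblast-like nuclei of the untreated library did for Nid2 on 3 UMIs and Lamb1 on 5. This placing was not made for all genes, so the counts above have no background share. The 24 genes with at least 100 CPM and 20 UMIs in some type of at least 2 libraries are drawn as a heat map.

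**Figure D1:**
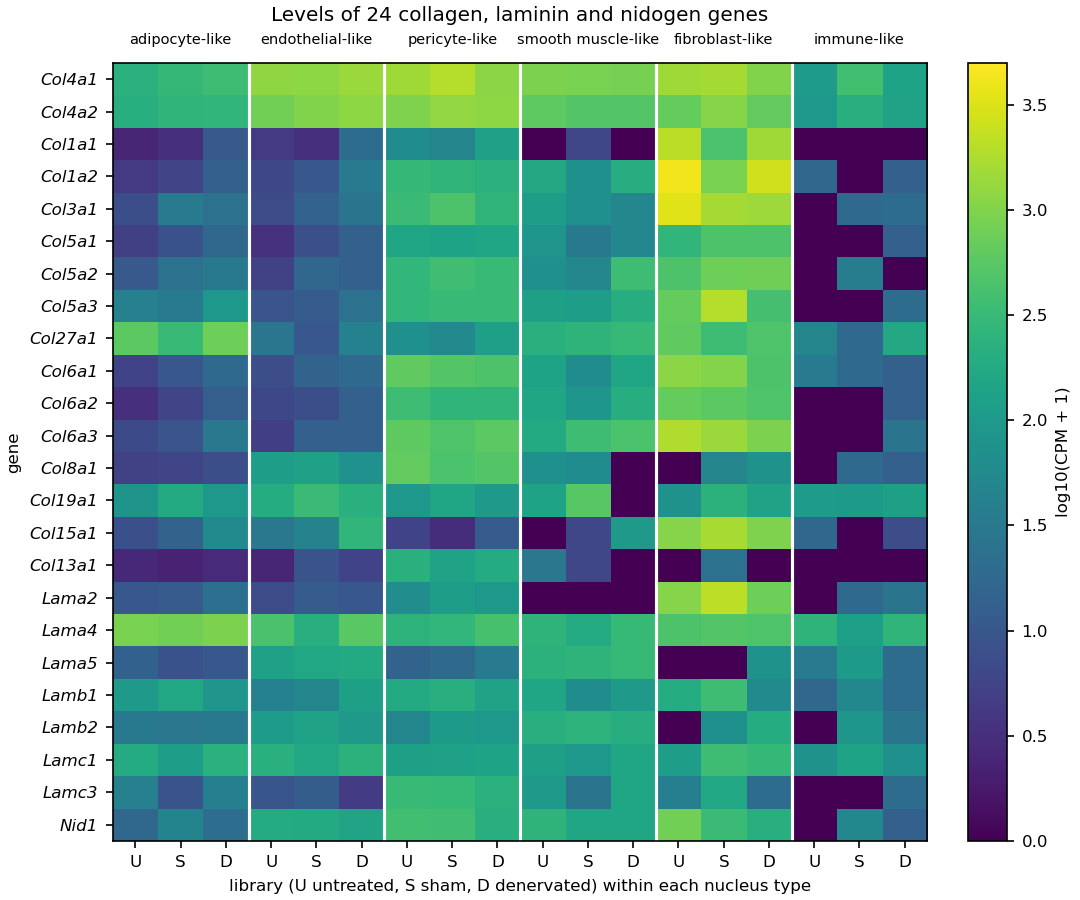
Level of 24 genes (rows) in 6 nucleus types and 3 libraries (columns), as log10(CPM + 1) on the colour scale. Fibrillar and collagen VI genes are brightest in fibroblast-like and pericyte-like nuclei. Col4a1 and Col4a2 are bright in the vascular types and in fibroblast-like nuclei, Lama4 is brightest in adipocyte-like nuclei, and Col27a1 is bright in adipocyte-like and fibroblast-like nuclei.

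Collagen IV, the network-forming collagen of all basement membranes, is mostly made of the chains of Col4a1 and Col4a2. Summed over both, its level was 2052, 2161 and 2561 CPM in endothelial-like, 2471, 3198 and 2322 in pericyte-like and 444, 548 and 629 in adipocyte-like nuclei. Endothelial-like and pericyte-like nuclei were thus several-fold above adipocyte-like nuclei in each library. In the untreated library the log2 ratio of endothelial-like over adipocyte-like nuclei was 2.21 (95% interval 2.15 to 2.27), and that of pericyte-like over endothelial-like nuclei was 0.27 (95% interval 0.17 to 0.36). The latter was 0.57 (95% interval 0.50 to 0.63) in the sham and -0.14 (95% interval -0.27 to -0.01) in the denervated library, so the order of the 2 vascular types differed between libraries. Smooth muscle-like nuclei held 1525, 1408 and 1363 and fibroblast-like nuclei 2146, 2676 and 1625. The adipocyte-like level of collagen IV can be set beside the endothelial marker list, which these nuclei held at 2.41%, 3.23% and 2.23% of its endothelial-like level. Barcodes under 200 genes, of which there were 1871, 988 and 5358, held collagen IV at 808, 857 and 1614, above the adipocyte-like level in each library. They also held the endothelial list at 7082, 6299 and 13558 CPM, against 18359, 15154 and 15524 in endothelial-like nuclei. Which part of these barcodes is free RNA was not tested. The part of endothelial or free RNA in the adipocyte-like level was not tested either.

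The genes of both chains lie head to head on chromosome 8 (GRCm38, GENCODE vM21), Col4a1 at chr8:11198423-11312826, minus strand and Col4a2 at chr8:11312805-11449287, plus strand, and their annotated 5′ ends overlap. Col4a1 stood at 1227, 1179 and 1395 CPM in endothelial-like nuclei, at 1508, 1919 and 1148 in pericyte-like and at 228, 289 and 358 in adipocyte-like nuclei. Col4a2 stood at 825, 983 and 1166 in endothelial-like, at 962, 1279 and 1174 in pericyte-like and at 216, 259 and 272 in adipocyte-like nuclei. Adipocyte-like nuclei were thus the lowest of the 3 for both genes. The log2 ratio of Col4a1 over Col4a2 UMIs differed between types. In the untreated library it was 0.08 (95% interval -0.01 to 0.17) in adipocyte-like, 0.57 (95% interval 0.50 to 0.64) in endothelial-like and 0.65 (95% interval 0.47 to 0.83) in pericyte-like nuclei. It was lowest in adipocyte-like nuclei of the untreated and sham library (0.16), while in the denervated library it was 0.40 (95% interval 0.30 to 0.49) in adipocyte-like and -0.03 (95% interval -0.26 to 0.20) in pericyte-like nuclei.

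**Figure D2:**
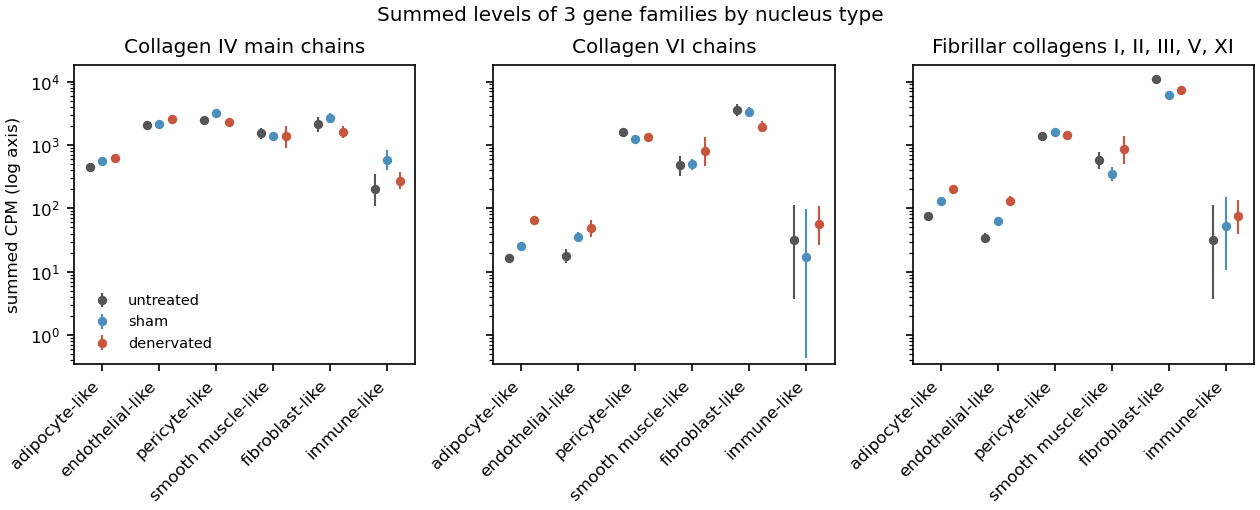
Summed CPM (log axis) of the Col4a1 and Col4a2 chains, the collagen VI chains and the fibrillar collagens in 6 nucleus types, 1 point per library with its exact 95% Poisson interval. Collagen IV spans about an order of magnitude over the types, whereas collagen VI and fibrillar collagens are far higher in fibroblast-like and pericyte-like than in adipocyte-like and endothelial-like nuclei.

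The minor collagen IV chains (Col4a3 to Col4a6), which in most tissues are confined to special basement membranes such as that of the kidney glomerulus, were low in sum, at 74.8, 28.6 and 79.2 CPM in adipocyte-like nuclei. The bulk of this was Col4a5, at 67.3, 20.3 and 62.2. In these nuclei Col4a5 was lowest in the sham library. Smooth muscle-like nuclei of the sham library held Col4a5 at 143.9 on 28 UMIs and Col4a6 at 66.8 on 13. Col4a3 and Col4a4 were highest in fibroblast-like nuclei in the untreated library, at 429 and 273, on 11 and 7 UMIs from 28 nuclei. The 53 such nuclei of the sham library gave 235 and 282, and the 78 of the denervated library 19.3 and 77.4. These 2 genes also lie head to head, on chromosome 1, and the 71 bases printed with those of Col15a1 fill the whole gap between their annotated starts.

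Laminin alpha chains decide which receptors a laminin binds, and 3 of them were each highest in a different type. Lama4, an alpha chain of vessel and fat laminins, was 905, 805 and 937 CPM in adipocyte-like, 440.4, 207 and 561 in endothelial-like and 246, 277 and 420.1 in pericyte-like nuclei. Adipocyte-like nuclei were the highest of the 6 types in each library. In the untreated library the log2 ratio of endothelial-like over adipocyte-like nuclei was -1.04 (95% interval -1.12 to -0.96). Lama5, an alpha chain of the laminins of mature vessels, was 132, 163 and 180.0 in endothelial-like and 238, 257 and 303 in smooth muscle-like nuclei against 13.2, 7.43 and 9.10 in adipocyte-like nuclei. The order of endothelial-like and adipocyte-like nuclei was thus opposite for Lama4 and Lama5, with a log2 ratio of 3.32 (95% interval 3.02 to 3.63) for Lama5 in the untreated library. Lama2, the alpha chain of muscle and nerve laminin, was highest in fibroblast-like nuclei, at 1054, 2136 and 755. Of the 6 types pericyte-like nuclei came next, at 64.5, 115 and 94.2, while Schwann-like nuclei, described below, stood at 461, 444 and 264.

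Among beta chains, Lamb1 was 97.0, 163 and 84.3 CPM in adipocyte-like, 184, 212 and 134 in pericyte-like and 41.1, 47.5 and 124 in endothelial-like nuclei. Lamb2, its alternative in the trimer, was 30.8, 28.2 and 30.2 in adipocyte-like, 48.4, 103 and 94.2 in pericyte-like and 106, 133 and 101 in endothelial-like nuclei, and highest in smooth muscle-like nuclei at 209.8, 242 and 202, where the last rests on 4 UMIs (95% interval 55.0 to 517). In the untreated library, the log2 ratio of Lamb1 over Lamb2 UMIs was thus higher in adipocyte-like nuclei, at 1.66 (95% interval 1.46 to 1.86), than in endothelial-like nuclei, at -1.36 (95% interval -1.66 to -1.08). The sham library had the same order, at 2.53 and -1.49. In the denervated library the types were less far apart, at 1.48 (95% interval 1.23 to 1.74) and 0.30 (95% interval -0.12 to 0.72). Lamb3, a chain of an epithelial laminin, was highest in adipocyte-like nuclei at 58.8, 41.0 and 67.2. Its gene overlaps G0s2 and Hsd11b1 on the other strand, both expressed by adipocytes, and the strand handling of the counting is not given in the sources used here.

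Among gamma chains, Lamc1, part of most laminins, differed less between the 3 large types, at 188, 114 and 232 CPM in adipocyte-like, 222, 165 and 237 in endothelial-like and 127, 128 and 138 in pericyte-like nuclei. Lamc3, a gamma chain of few tissues, was highest in pericyte-like nuclei, at 320.1, 305 and 228. Adipocyte-like nuclei held 39.4, 8.26 and 38.5 of it, lowest in the sham library. Nid1, the main nidogen, was 373, 370.1 and 206 in pericyte-like, 189, 179 and 146 in endothelial-like and 16.1, 45.9 and 20.8 in adipocyte-like nuclei, and its level in the 28 fibroblast-like nuclei of the untreated library was 819. Nid2 was 13.4, 15.7 and 42.4 in endothelial-like nuclei. The vascular types thus led adipocyte-like nuclei for Nid1.

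The log2 ratio of Lamb1 over Lamc1, both of which enter a trimer with Lama4, was -0.95 (95% interval -1.07 to -0.83) in adipocyte-like, -2.43 (95% interval -2.71 to -2.17) in endothelial-like and 0.54 (95% interval 0.03 to 1.06) in pericyte-like nuclei of the untreated library. Among these large types, endothelial-like nuclei had the lowest ratio in the untreated and the sham library (-1.79). In the denervated library adipocyte-like nuclei had the lowest of them, at -1.46 (95% interval -1.61 to -1.31) against -0.94 (95% interval -1.29 to -0.60) in endothelial-like nuclei. For the chains of collagen I, the log2 ratio of Col1a1 over Col1a2 was -0.99, -1 (19 against 38 UMIs) and -0.87 in fibroblast-like nuclei. In pericyte-like nuclei it was -2.25, -2.48 and -0.83. Col6a1 over Col6a2 in pericyte-like nuclei was 0.83, 0.99 and 0.83. UMIs of 2 genes are not corrected for length here, so each ratio is read only across types and libraries.

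**Figure D3:**
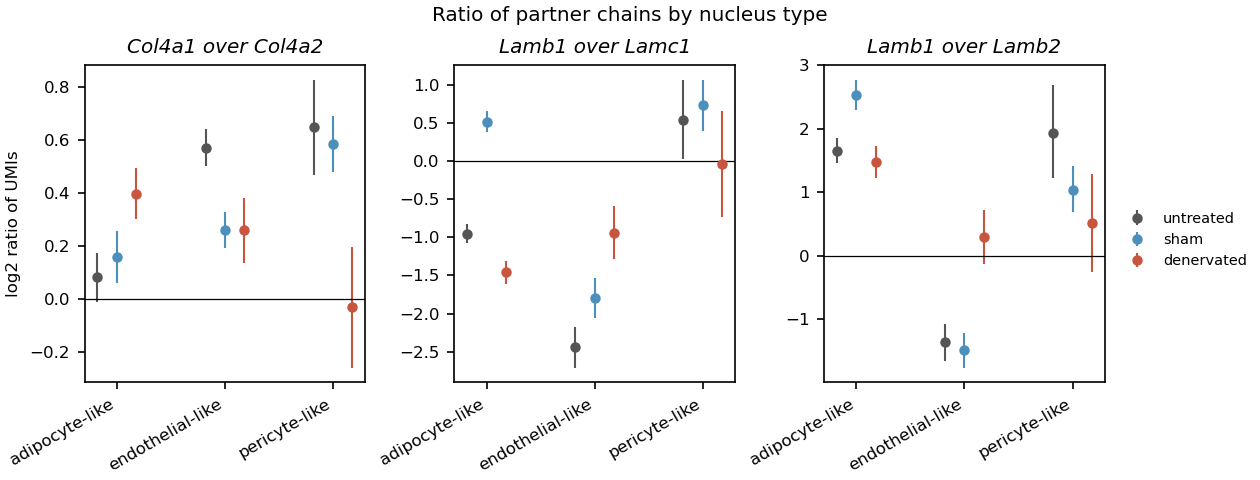
Log2 ratio of UMIs of Col4a1 over Col4a2, Lamb1 over Lamc1 and Lamb1 over Lamb2 in 3 nucleus types, 1 point per library with its exact conditional binomial 95% interval. Lamb1 over Lamb2 is higher in adipocyte-like than in endothelial-like nuclei of all 3 libraries, with the types least far apart in the denervated library.

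The fibrillar collagens I, II, III, V and XI, the fibres of connective tissue, summed to 11044, 6103 and 7333 CPM in fibroblast-like nuclei and 1402, 1595 and 1413 in pericyte-like nuclei. Adipocyte-like nuclei held 74.9, 131 and 203 and endothelial-like nuclei 34.3, 63.5 and 131, far below both. The log2 ratio of fibroblast-like over pericyte-like nuclei was 2.98 (95% interval 2.77 to 3.18) in the untreated library. It rests on 28 fibroblast-like nuclei and was 0.22 with at least 500 genes a nucleus and 0.35 with finer clusters, and without doublet removal no fibroblast-like cluster was found. Col1a2, a chain of collagen I, was 4175, 892 and 2728 in fibroblast-like and 295, 263 and 232 in pericyte-like nuclei. Fibroblast-like nuclei were above pericyte-like nuclei in each library, with the smallest gap in the sham library. Schwann-like nuclei (29, 133 and 48) also carried fibrillar collagens, at 5686, 3587 and 5865 in sum.

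Collagen VI was likewise highest in fibroblast-like and next in pericyte-like nuclei among the 6 types. Its chains summed to 3590.1, 3309.6 and 1954 CPM in fibroblast-like, 1593, 1253 and 1315 in pericyte-like and 476, 499 and 808 in smooth muscle-like nuclei, against 17.9, 35.5 and 49.3 in endothelial-like and 16.4, 25.6 and 65.8 in adipocyte-like nuclei. Pericyte-like nuclei were thus well above endothelial-like nuclei, at a log2 ratio of 6.48 (95% interval 6.10 to 6.88), 5.14 (95% interval 4.87 to 5.43) and 4.74 (95% interval 4.28 to 5.23). Col6a3, its largest chain, was 610.2, 473 and 587 in pericyte-like nuclei.

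Of the other collagens, 2 were higher in pericyte-like nuclei than in endothelial-like nuclei as a whole. Col8a1, a short-chain collagen of the vessel wall, was 656, 453 and 507 CPM there against 117, 132 and 73.4 in endothelial-like nuclei. Col13a1, a transmembrane collagen, was 226, 136 and 188 in pericyte-like and 1.49, 7.71 and 4.59 in endothelial-like nuclei. Pericyte-like nuclei were higher for both in each library than endothelial-like nuclei as a whole. Endothelial sub-clusters differed in Col8a1. The one led by Sema3g, Fbln5, Alox12 and Nebl, of which Sema3g and Fbln5 stand in the arterial endothelial list, held 649 in the untreated and 1066 in the sham library. The former was near the pericyte-like level of 656 and the latter above that of 453. No such sub-cluster stood apart in the denervated library.

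Col27a1, a fibrillar collagen best known from cartilage, set adipocyte-like nuclei apart from the vascular types. It was 579, 320.1 and 761 CPM in adipocyte-like, 27.1, 9.25 and 41.3 in endothelial-like and 71.4, 53.5 and 123 in pericyte-like nuclei. Adipocyte-like nuclei led both in each library, and the log2 ratio of endothelial-like over adipocyte-like nuclei was -4.42 (95% interval -4.73 to -4.12) in the untreated library. The endothelial-like level, 4.69%, 2.89% and 5.42% of the adipocyte-like one, was below the share at which the adipocyte list stood in the same nuclei. The small fibroblast-like group held 624, 352 and 484, and Schwann-like nuclei were higher than all of these, at 1114, 2454 and 1845. Col19a1, a fibril-associated collagen, was 195, 329.8 and 220.1 in endothelial-like and 80.9, 182 and 92.4 in adipocyte-like nuclei. Barcodes with too few genes to be kept held Col19a1 at 691, 928 and 183, above both types in the untreated and sham library, and the part of such RNA in the level of the nuclei was not tested. Col15a1, a collagen that bridges basement membrane and interstitium, was 1054, 1643 and 967 in fibroblast-like nuclei, 29.8, 43.5 and 272 in endothelial-like and 7.12, 14.2 and 56.0 in adipocyte-like nuclei, but 4.61, 2.10 and 10.9 in pericyte-like nuclei. Pericyte-like nuclei thus had the lowest value of these types for Col15a1, but on 2, 2 and 3 UMIs. In the untreated library 2 UMIs are too few to order them against adipocyte-like nuclei.

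Promoter-side sequences are shown for 4 genes on which these results turn, Col15a1 and Lamb1 for the difference between libraries, Col27a1 for adipocyte-like nuclei and Col4a4 for the shared start with Col4a3. They come from RefSeq (GRCm38.p6), which had entries for 41 of the 57 symbols, and run 5′ to 3′ on the strand of the gene. Capitals mark matches of the CCAAT box (CCAAT), the GC box (GGGCGG) or the TATA box (TATAA) on either strand.
Col15a1, chr4:47207762-47208011, plus strand: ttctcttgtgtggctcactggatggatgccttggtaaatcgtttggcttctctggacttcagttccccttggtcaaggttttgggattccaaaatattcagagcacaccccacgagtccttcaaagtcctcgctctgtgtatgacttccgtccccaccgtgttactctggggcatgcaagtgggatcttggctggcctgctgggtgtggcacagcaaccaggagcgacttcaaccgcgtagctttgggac
Lamb1, chr12:31265043-31265233, plus strand: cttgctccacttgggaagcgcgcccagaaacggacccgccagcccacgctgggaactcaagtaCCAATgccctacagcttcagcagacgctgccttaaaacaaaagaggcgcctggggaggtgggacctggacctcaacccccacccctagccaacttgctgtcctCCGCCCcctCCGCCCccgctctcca
Col27a1, chr4:63215162-63215411, plus strand: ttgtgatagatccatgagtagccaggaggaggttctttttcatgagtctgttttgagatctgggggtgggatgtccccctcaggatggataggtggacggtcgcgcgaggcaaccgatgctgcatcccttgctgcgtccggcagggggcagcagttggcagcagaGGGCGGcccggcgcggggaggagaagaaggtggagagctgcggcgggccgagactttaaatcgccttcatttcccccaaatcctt
Col4a4, chr1:82586850-82586920, minus strand: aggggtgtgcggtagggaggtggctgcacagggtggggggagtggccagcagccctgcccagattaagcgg
Col15a1 lies at chr4:47208161-47313167, plus strand, and its annotated GENCODE start is 150 bases past the last base printed. Lamb1, at chr12:31265234-31329644, plus strand, starts at the base after the stretch. Col27a1 lies at chr4:63214004-63334991, plus strand, and its stretch is inside the gene, where no annotated exon falls. The Lamb1 stretch of 191 bases held CCAAT 128 bases from its right end and GGGCGG on the other strand at 25 and 16 bases, and the Col27a1 stretch of 250 bases held GGGCGG at 85 bases. The stretches of Col15a1 and Col4a4 held none of the 3 motifs. Of 32851 promoters cut to 191 bases, 28.5% held CCAAT and 30.7% GGGCGG, and of those cut to 250 bases, 33.8% held CCAAT, 32.7% GGGCGG and 22.8% TATAA. Of those cut to 71 bases, 13.3% held CCAAT, 20.7% GGGCGG and 8.14% TATAA. A match is a run of letters and not a shown binding site, and no match says only that these letters are not in the stretch. Gm12426 overlaps Col15a1 on the other strand.

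Counted over all entered genes, 18 of 33 were past the fold higher in pericyte-like than in endothelial-like nuclei of the untreated library, against a background of 16.2% of all genes entered, and 6 were lower, against 12.9%. The sham library gave 18 higher and 5 lower of 33 (background 16.8% and 13.1%), and the denervated library 15 and 4 of 29 (background 14.9% and 16.9%). The share higher in pericyte-like nuclei was above the background share in each library. Between pericyte-like and adipocyte-like nuclei, 18 of 39, 19 of 37 and 21 of 44 were higher in the former (background 16.9%, 20.6% and 14.3%), and 6, 9 and 7 lower (15.8%, 19.3% and 12.9%). Between endothelial-like and adipocyte-like nuclei the counts were closer to the background, with 12, 11 and 12 of 43, 40 and 43 higher in the former (background 18.5%, 20% and 17.5%) and 14, 12 and 12 lower (background 26.5%, 24.3% and 20.1%). Col4a1, Col4a2, Col8a1, Lama3, Lama5, Lamb2, Nid1 and Nid2 were past the fold towards endothelial-like nuclei in all 3 libraries, and Col12a1, Col20a1, Col23a1, Col27a1, Col4a5, Col5a3, Col7a1 and Lamb3 towards adipocyte-like nuclei.

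The denervated and untreated libraries were then compared within a nucleus type. In endothelial-like nuclei, Col15a1, with its upstream stretch printed above, stood at 29.8, 43.5 and 272 CPM, high in the denervated library alone. Its log2 ratio, denervated over untreated, was 3.19 (95% interval 2.85 to 3.54) on 237 against 100 UMIs. Lamb1 was 41.1, 47.5 and 124 and Nid2 13.4, 15.7 and 42.4, both again highest in the denervated library, with log2 ratios of 1.59 (95% interval 1.21 to 1.96) and 1.66 (95% interval 0.99 to 2.32). Barcodes under 200 genes held Col15a1 at 20.1, 25.1 and 82.6, Lamb1 at 26.2, 12.6 and 75.7 and Nid2 at 8.05, 2.51 and 32.1. These too were highest in the denervated library. Of the other higher genes, named below, only Col18a1 was lower in such barcodes of the denervated (8.03) than of the untreated library (14.1). The part of such RNA in the values of the nuclei was not tested. Several other genes of the vessel basement membrane stayed under the fold. Col4a1 had a log2 ratio of 0.19 (95% interval 0.09 to 0.28), Col4a2 of 0.50 (95% interval 0.39 to 0.60), Lama4 of 0.35 (95% interval 0.20 to 0.50) and Lama5 of 0.45 (95% interval 0.18 to 0.71). Lamc1 had 0.09 (95% interval -0.13 to 0.32), Nid1 -0.38 (95% interval -0.66 to -0.10) and Col8a1 -0.68 (95% interval -1.08 to -0.29), of which the last 2 were below 0. In all, 12 of the 30 entered genes were past the fold higher and 0 lower, against 5.79% and 1.67% of all genes. The other 9 higher genes were Col1a1, Col1a2, Col3a1, Col5a2, Col5a3, Col6a1, Col6a2, Col6a3 and Col18a1, on 11 to 27 UMIs each in the denervated library and with log2 ratios of 1.23 to 2.57. The median over the 30 genes was 0.66, and over all genes 0.07. With nuclei thinned to 300 UMIs, 5 of 19 entered genes were past the fold higher and 0 lower (background 4.11% and 2.04%), and with at least 500 genes a nucleus, 5 of 19 entered genes were past the fold higher and 1 lower (background 6.86% and 3.59%).

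Marker lists of fibroblasts and pericytes, both rich in fibrillar collagens and collagen VI, were also higher in the denervated than in the untreated library. The 12-gene fibroblast list summed to 39.3, 61.0 and 64.2 CPM in endothelial-like nuclei, or 0.548%, 1.39% and 2.68% of its fibroblast-like level, with 3, 1 and 6 of the 12 markers at 0. That fibroblast-like level was itself 7180, 4389 and 2399 CPM, so the percents rose with a falling reference too. The fibroblast-like clusters also differed in leading genes, such as Pi16 in the untreated and Tnfaip6 in the denervated library. The defining fibroblast markers went opposite ways on few UMIs, Dcn being at 3.87, 2.16 and 1.15 CPM (13, 7 and 1 UMIs) and Pdgfra at 0.894, 2.47 and 2.29 (3, 8 and 2). The 10-gene pericyte list was 287, 359 and 399 CPM, or 2.06%, 2.38% and 4.59% of its pericyte-like level, with 0, 0 and 1 marker at 0. Collagen VI in the same nuclei was at 0.498%, 1.07% and 2.52% of its fibroblast-like level and the fibrillar collagens at 0.310%, 1.04% and 1.78%, close to the list. Col15a1 was at 2.83%, 2.65% and 28.1%, so in the denervated library it stood well above the share of the list. The part of fibroblast and pericyte RNA in these values was not tested. The adipocyte list in endothelial-like nuclei was also highest in the denervated library, at 13.5% of its own level, after 595 nuclei rich in it had been left unnamed there. With the unnamed endothelial sub-clusters of both libraries put back (115 nuclei in the untreated library), 19 genes of 34 were past the fold higher (background 10.8%), and Col4a1 turned to a log2 ratio of -0.16 (95% interval -0.24 to -0.07). Collagen IV in sum went from 0.32 (95% interval 0.25 to 0.39) to -0.014, while at least 500 genes a nucleus gave 0.83.

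In adipocyte-like nuclei, Col15a1 was 7.12, 14.2 and 56.0 CPM, with a log2 ratio of 2.98 (95% interval 2.58 to 3.39). Col6a3 was 5.74, 8.42 and 29.4 and Col1a1 1.49, 2.15 and 9.79, at log2 ratios of 2.36 (95% interval 1.89 to 2.84) and 2.71 (95% interval 1.83 to 3.71). Each was highest in the denervated library. Barcodes under 200 genes held Col6a3 at 6.04, 10.1 and 40.1 and Col1a1 at 2.01, 0 and 27.5, again highest in the denervated library, as was Col15a1 there. Lama3, Col4a3 and Col6a6, named below, were not higher in such barcodes of the denervated than of the untreated library. The part of such RNA in these values was not tested. Col4a1, at a log2 ratio of 0.65 (95% interval 0.56 to 0.74), and Col4a2, at 0.33 (95% interval 0.23 to 0.43), were higher without reaching the fold. Lama4, highest in these nuclei among the 6 types, had 0.05 (95% interval -0.0013 to 0.10), Lamb1 -0.20 (95% interval -0.37 to -0.04), Lamc1 0.30 (95% interval 0.20 to 0.41) and Col27a1 0.40 (95% interval 0.34 to 0.45). In all, 18 of 48 entered genes were past the fold higher and 0 lower, against 8.69% and 1.92% of all genes, with a median of 0.69 against 0.03. Among the others of the 18 were the fibrillar Col1a2 (1.96), Col3a1 (1.74), Col5a1 (2.08), Col5a2 (1.63), Col5a3 (1.20) and Col11a1 (1.54), the collagen VI genes Col6a1 (1.94), Col6a2 (2.41) and Col6a6 (1.14), Col4a3 (1.33), Col4a6 (1.24) and Col26a1 (1.33), and the laminin chains Lama2 (1.24) and Lama3 (1.10). The fibroblast list in these nuclei was 16.8, 21.1 and 32.8 CPM, or 0.233%, 0.482% and 1.37% of its fibroblast-like level, while collagen VI was at 0.457%, 0.773% and 3.37%, the fibrillar collagens at 0.679%, 2.14% and 2.77% and Col15a1 at 0.675%, 0.864% and 5.79% of theirs. Its fibroblast-like level fell from library to library, as given above. The Schwann, smooth muscle, skeletal muscle and immune lists in these nuclei were also higher in the denervated than in the untreated library. The pericyte list was lower, and values for most of these lists stand with the sham comparison below. Schwann-like nuclei carried fibrillar collagens too. The part of RNA of fibroblasts or of these other types in the values was not tested. With nuclei thinned to 300 UMIs, 11 of 32 entered genes were past the fold higher and 1 lower (background 5.74% and 3.03%).

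**Figure D4:**
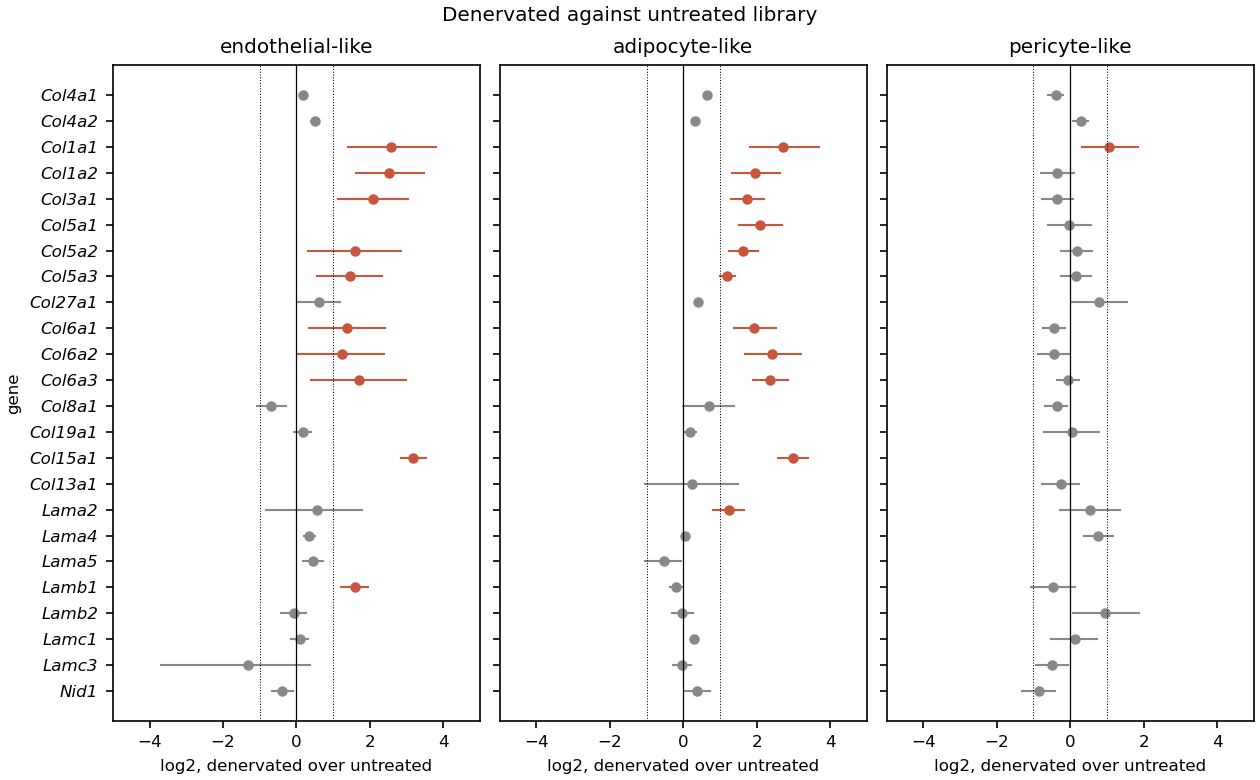
Log2 ratio of levels, denervated over untreated, of 24 genes in endothelial-like, adipocyte-like and pericyte-like nuclei, with exact conditional binomial 95% intervals. Red points are past the fold (dotted lines at a log2 ratio of 1 in size), and Col15a1 is past it in endothelial-like and adipocyte-like but was not entered in pericyte-like nuclei.

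Pericyte-like nuclei gave a different count. Of 26 entered genes, 1 was past the fold higher and 0 lower, against 4.62% and 5.15% of all genes. It was Col1a1, at 62.2 CPM in the untreated and 130.4 in the denervated library, with a log2 ratio of 1.07 (95% interval 0.31 to 1.84). The count of 1 ranged from 0 to 4 over other settings. It reached 4 only against the sham library, with no minimum of UMIs or at a log2 ratio of 0.58, which change the comparison or the call rule. The genes entered and the share of all genes move with the setting too. Col4a1 had -0.39 (95% interval -0.59 to -0.20) and Col4a2 0.29 (95% interval 0.07 to 0.50), with opposite signs. Nid1 was 373, 370.1 and 206, lowest in the denervated library, with a log2 ratio of -0.85 (95% interval -1.32 to -0.41), and Lama4 had 0.77 (95% interval 0.38 to 1.16). With at least 500 genes a nucleus the ratio of Nid1 was 0.067. The pericyte list itself was 13935 CPM in the untreated and 8685 in the denervated library, and the adipocyte list stood at 8.23% and 13.2% of its own level. Their part in these values was not tested. Whether the number of genes past the fold differs between nucleus types cannot be tested with 1 library a group, and pericyte-like nuclei had fewer UMIs.

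Adipocyte-like nuclei were uneven in these genes. In each library 1 adipocyte cluster was highest in Slc7a10, an amino acid transporter and a white adipocyte marker, at 125, 342 and 729 CPM. It held 634, 1693 and 922 nuclei. The cluster was singled out after the values were seen, and clusters of different libraries need not hold the same cells. Its leading genes included heat shock and immediate early genes (Hspa1a, Dnajb1, Atf3, Egr1) in the untreated, Fosb, Fos and Nnat in the sham, and Cxcl1, Irf1, Ptx3 and Slc7a10 in the denervated library. Values for it are a description with no test.

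Col15a1 was 55.2, 35.9 and 343 CPM in this cluster and 2.15, 2.30 and 8.21 in the other adipocyte clusters. Col4a1 was 321, 443 and 1219 against 219, 205 and 215. The gap for both was widest in the denervated library, where Col4a1 in the cluster stood near its endothelial-like level of 1395. Col5a3, a chain of collagen V, was 96.8, 76.0 and 343 against 34.7, 9.72 and 51.5, and Col6a3 18.4, 17.7 and 166 against 4.43, 3.32 and 6.61. Lamb1 was 136, 197 and 211 against 92.9, 145 and 63.3. Col27a1 had the opposite order, at 449, 166 and 129 against 592, 404 and 867. Of the entered genes, 9 of 36, 11 of 33 and 18 of 42 were past the fold higher in the cluster (background 3.16%, 7.23% and 8.71%), and 0, 2 and 6 lower (background 5.89%, 7.90% and 18.1%).

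**Figure D5:**
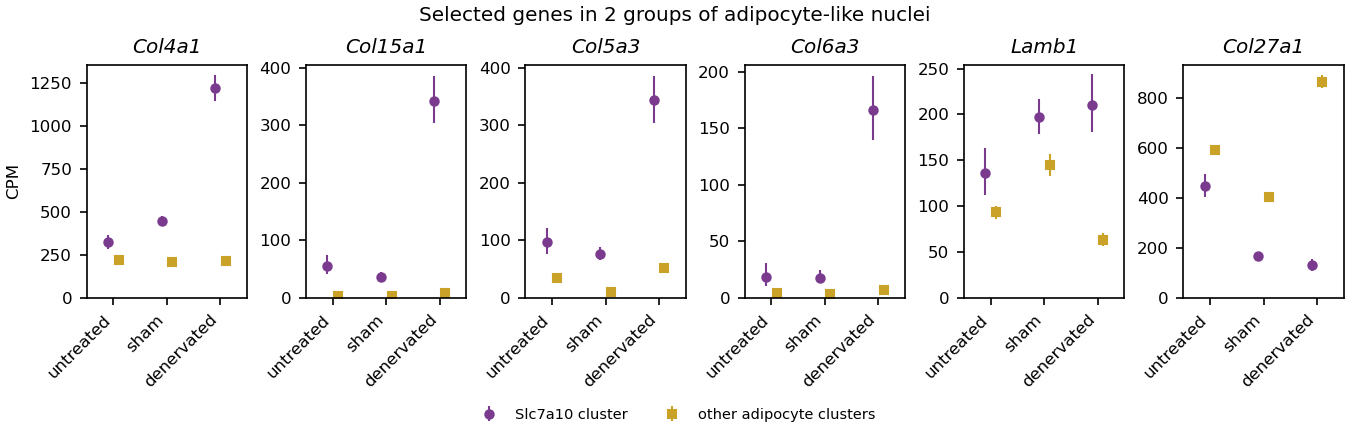
CPM of 6 genes in the adipocyte cluster highest in Slc7a10 (circles) and in the other adipocyte clusters (squares) of each library, with exact 95% Poisson intervals. Each panel has its own axis from 0, and 5 genes are higher in the cluster in all 3 libraries while Col27a1 is lower.

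Within the cluster, 14 of 30 entered genes were past the fold higher in the denervated than in the untreated library and 6 lower (background 10.9% and 13.4%). Col4a1 had a log2 ratio of 1.92 (95% interval 1.73 to 2.13) there and -0.03 (95% interval -0.14 to 0.08) in the other adipocyte clusters, an interval that holds 0. The cluster itself was not alike in both libraries, with a brown adipocyte list at 2117 and 796 CPM in the untreated and denervated library and a white-like list at 424 and 1502. Collagen IV in sum went from 0.50 (95% interval 0.44 to 0.57) over all adipocyte-like nuclei to -0.042 without the cluster, and was 1.55 with at least 500 genes a nucleus. Col15a1 had 2.64 (95% interval 2.18 to 3.12) in the cluster and 1.93 (95% interval 1.08 to 2.84) in the other clusters, past the fold in both. In the other clusters 12 of 46 genes were higher and 0 lower (background 6.95% and 1.76%). In the cluster of the denervated library the fibroblast list stood at 3.06% of its fibroblast-like level, below collagen VI at 15.2%, the fibrillar collagens at 10.2% and Col15a1 at 35.5%.

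Endothelial-like nuclei were also divided. The sub-cluster highest in Apln, which encodes a peptide of sprouting endothelium, held 27, 209 and 369 nuclei and was likewise chosen after the values were seen. Apln stood in it at 1392, 83.9 and 272 CPM, on 39, 15 and 63 UMIs. Here too the sub-clusters of different libraries need not hold the same cells, and that of the sham library was led by Col15a1 itself. In the denervated library it was also led by Selp, Plvap, Eln, Ehd4, Vwf and Mki67, a proliferation gene. Selp and Vwf stand in the venous endothelial list, and Sema3g, of the arterial list, was among its leading genes when it was set against all nuclei of that library. Col15a1 was 428, 347 and 737 CPM in it and 26.4, 25.8 and 103 in the other endothelial sub-clusters as a pool. In the sham library a sub-cluster led by Plvap, Lrg1, Ehd4, Selp and Vwf held 245 (95% interval 165 to 349.9), which overlaps the interval of the Apln sub-cluster (266 to 445). Col4a1 was 3747, 2769 and 2195 against 1205, 1086 and 1106. Lamb1 was 224 against 87.5 in the denervated library. Within this sub-cluster, 1 of 12 entered genes was past the fold higher, denervated over untreated, and 2 lower (background 4.38% and 4.50%), on the 27 nuclei of the untreated library. Without this sub-cluster, 13 of 30 genes were past the fold higher, denervated over untreated, and 1 lower (background 5.24% and 1.76%). Col15a1 then had a log2 ratio of 1.96 (95% interval 1.48 to 2.44), Lamb1 of 1.08 (95% interval 0.60 to 1.53) and Col8a1, the lower gene, of -1.38 (95% interval -1.98 to -0.84). The pools so compared differ in arterial and venous nuclei. In the untreated library the 625 nuclei of the Sema3g sub-cluster, with most of the Col8a1 UMIs, stayed in the pool, whereas in the denervated library the nuclei taken out held Col8a1 at 151 CPM against 45.3 in those left, and what this does to the 3 ratios was not tested. Collagen IV in sum went to 0.061, with 0 inside its interval.

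The sham library was compared with the same untreated library, so both comparisons share it. In endothelial-like nuclei, 7 of 34 entered genes were past the fold higher and 4 lower (background 5.16% and 3.35%). The largest share of UMIs that the profile of barcodes under 200 genes could take in endothelial-like nuclei, given their marker lists, was 21.4%, 69.5% and 28.5%. With that share subtracted the counts were again 7 and 4, which does not show that the same genes were past the fold. The sham profile held Col19a1 at 928 CPM, above its endothelial-like level given above. It also held the endothelial list at 6299, against 15154 in endothelial-like nuclei, so the subtraction takes endothelial UMIs too. Other settings gave 1 higher with nuclei thinned to 300 UMIs, 3 higher without doublet removal, and 1 lower with at least 500 genes a nucleus or at most 10% mitochondrial UMIs. The genes entered and the share of all genes also move with the setting and were not counted for these. Such a count alone is therefore no gain or loss. Lama4 was the best measured of the genes past the fold, lower in the sham library at 672 against 1478 UMIs and a log2 ratio of -1.09 (95% interval -1.22 to -0.96). Col27a1 (-1.55), Lamb3 (-1.54) and Col25a1 (-1.19) were the other lower genes. With the unnamed sub-clusters put back in both libraries, Lama4 (-0.999) and Lamb3 (-0.98) fell short of the fold and Col12a1 (-1.83) passed it. Lama4, Col27a1 and Lamb3 were past the fold towards adipocyte-like nuclei in the untreated library, and the adipocyte list in endothelial-like nuclei was 1758 CPM in the untreated and 1445 in the sham library. Lama4 in endothelial-like nuclei was at 48.6% and 25.7% of its adipocyte-like level, against 10.7% and 9.80% for the list. The higher genes were Col13a1 (2.37), Col5a2 (1.89), Col6a3 (1.71), Col5a1 (1.57), Col20a1 (1.33), Col3a1 (1.19) and Col6a1 (1.11), on 23 to 51 UMIs in the sham library. Fibrillar and collagen VI genes were thus past the fold here too, whereas Col15a1 had 0.54 (95% interval 0.16 to 0.93) and Lamb1 0.21 (95% interval -0.13 to 0.55).

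In adipocyte-like nuclei, 7 of 45 entered genes were past the fold higher in the sham than in the untreated library and 5 lower (background 8.85% and 8.36%), shares near those of all genes on the lower side. Col12a1, a collagen that coats fibrils, was 43.6, 7.93 and 60.6 CPM, low in the sham library alone, with a log2 ratio of -2.46 (95% interval -2.92 to -2.02). Lamc3 (-2.25), Col4a5 (-1.73), Col14a1 (-1.11) and Col18a1 (-1.04) were also lower. Col3a1, at 6.77, 33.9 and 22.7, had a log2 ratio of 2.32 (95% interval 1.898 to 2.77). The remaining higher genes were Col11a2 (1.82), Nid1 (1.51), Col5a2 (1.29), Col19a1 (1.17), Col6a2 (1.11) and Col6a1 (1.02). Some marker lists of other types were higher in the same nuclei of the sham than of the untreated library. The pericyte list was 173, 231 and 150.1 CPM, with its members Kcnj8 at 1.49, 4.62 and 1.55 and Abcc9 at 8.03, 19.3 and 9.27, and a skeletal muscle list 13.7, 44.9 and 26.4. Of the endothelial list, whose shares are given above, Pecam1 was at 32.6, 50.5 and 25.1 and Cdh5 at 22.4, 30.7 and 15.5. The Schwann list was lower in the sham library, at 199.9, 155 and 264, and the fibroblast list, at 16.8, 21.1 and 32.8, the smooth muscle list, at 28.6, 27.4 and 44.0, and the immune list had overlapping counting intervals in the sham and untreated libraries. The part of these markers in the values of the collagens and laminins was not tested. The cluster highest in Slc7a10 held 1693 of 4385 adipocyte-like nuclei in the sham library against 634 of 4794 in the untreated library, and without it 2 of 41 genes were higher and 8 lower (background 8.36% and 9.37%). In pericyte-like nuclei, 2 of 27 genes were higher (Lamb2, 1.09, and Nid2, 1.16) and 3 lower (Col12a1, -1.58, Col20a1, -1.24, and Col18a1, -1.14), against 4.22% and 3.09% of all genes.

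With the sham library as the comparison, the denervated library had 10 of 31 genes past the fold higher and 1 lower in endothelial-like nuclei (background 9.60% and 5.84%), 21 of 43 higher and 2 lower in adipocyte-like nuclei (14.4% and 8.26%), and 4 of 28 higher and 0 lower in pericyte-like nuclei (6.25% and 8.24%). Col15a1 had a log2 ratio of 2.64 (95% interval 2.34 to 2.96) in endothelial-like and 1.98 (95% interval 1.63 to 2.34) in adipocyte-like nuclei, and Lamb1 of 1.38 (95% interval 1.01 to 1.75) in endothelial-like nuclei. Col15a1 in both types, and Lamb1 and Nid2 in endothelial-like nuclei, were thus past the fold in the denervated library against either other library. Collagen IV in sum, denervated over sham, had 0.25 (95% interval 0.18 to 0.31) in endothelial-like, 0.20 (95% interval 0.13 to 0.27) in adipocyte-like and -0.46 (95% interval -0.59 to -0.34) in pericyte-like nuclei, none at a log2 ratio of 1.

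Other genes of the pathway were counted from 4 lists, denervated over untreated, against the backgrounds given above for each nucleus type. Levels of named genes are in CPM. Of the genes that fold and process collagen (30 listed), 3 of 23 were past the fold higher and 0 lower in endothelial-like, 3 of 28 higher and 1 lower in adipocyte-like and 1 of 21 higher and 6 lower in pericyte-like nuclei. Sparc, a collagen-binding matrix protein, was among the lower in pericyte-like nuclei, at 5031 in the untreated and 2141 in the denervated library (log2 ratio -1.23). The others lower there were Plod2 and Plod3, lysyl hydroxylases, Crtap, Ppib and Pcolce, and the pericyte list was lower in the same nuclei, as given above, while Adamts2, a protease that trims fibrillar procollagen, was higher. Adamts2 was also higher in adipocyte-like nuclei, at 19.1 in the untreated and 67.2 in the denervated library (log2 ratio 1.82), with Plod2 and P3h2, and Lox, which cross-links collagen, was lower. P3h2, a prolyl hydroxylase of collagen IV, Tll1 and Loxl2 were the higher genes in endothelial-like nuclei. Of the receptors (15 listed), 1 of 10 were past the fold higher and 0 lower in endothelial-like, 2 of 13 higher and 0 lower in adipocyte-like and 0 of 7 higher and 0 lower in pericyte-like nuclei. They were the laminin-binding Itgb4 in endothelial-like nuclei, and Itgb4 and the collagen-binding Itga2 in adipocyte-like nuclei. Of the other basement membrane genes (12 listed), 0 of 7 were past the fold higher and 0 lower, 1 of 10 higher and 0 lower and 0 of 3 higher and 1 lower in the same order of types, which were Hmcn1 higher in adipocyte-like and Tinagl1 lower in pericyte-like nuclei. Of the matrix proteases and inhibitors (10 listed), 2 of 4 were past the fold higher and 0 lower, 1 of 5 higher and 0 lower and 1 of 4 higher and 1 lower in that order. Timp2, an inhibitor of matrix proteases, was higher in endothelial-like and pericyte-like nuclei, Mmp2 higher in adipocyte-like and Timp4 lower in pericyte-like nuclei. Mmp14, a membrane-bound collagenase, was among the higher in endothelial-like nuclei, at 11.3 in the untreated and 56.2 in the denervated library (log2 ratio 2.31).

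Of the 57 genes, 33 did not reach the level set for the heat map. Col10a1 and Col9a2, both cartilage collagens, had 1 UMI each over all nuclei of the 3 libraries and Col2a1 16, so nothing can be said of their order. Col2a1 was still counted above among the genes of adipocyte-like nuclei in the untreated and denervated library, on 4 and 7 UMIs. For Col9a1, Col9a3, Col6a4, Col6a5, Col8a2, Lama1, Col17a1, Col16a1, Col24a1, Col22a1 and Col26a1 the sum lay between 24 and 85 UMIs. Col28a1, a collagen related to collagen VI, was the only one placed in endothelial-like nuclei in each library, at 50.1, 33.9 and 57.3 CPM.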

How the data were processed

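The 3 deposited tables hold UMI counts per barcode and gene from 3 single-nucleus libraries, 1 per group. Per the file headers and the study's methods the authors made the counts with the BD WTA Rhapsody Analysis Pipeline 1.9-nuclei on GRCm38 with GENCODE vM19. The sham table has no header, and the submitters' processing notes also name GRCh38, while its symbols are those of mouse. The authors' later removal of background, doublets and immune clusters with Seurat 4.0.6 and other tools is not in these counts, so their cell types were not used here. Barcodes needed 200 or more genes, with no more than 50% of UMIs mitochondrial, to stay in. A barcode was taken for a doublet, and left out, when its second marker list had at least 3 UMIs and 25% of the first (1295 of 11792 barcodes in the untreated library). Louvain clusters (2000 variable genes, 30 components, 20 neighbours, resolution 0.5, with python-igraph 0.11.9, scikit-learn 1.9.0, Python 3.11.15) were made per library with the 57 genes withheld. A cluster was named from a list when at least 3 and at least 50% of its markers were at 2 times their lower quartile over the library's clusters, pericyte-like and smooth muscle-like nuclei were split by sub-clusters, and sub-clusters with more UMIs of the adipocyte list than of their own, named as another type, or (pericyte and smooth muscle) with more markers of another list than of their own among the 10 leading genes were left unnamed (133, 372 and 717 unnamed nuclei in the untreated, sham and denervated library). This naming rule was set after the clusters were seen. UMIs were summed per type and library. With 1 library a group there was no test: intervals are exact and cover counting error only, at depths of 12963064, 11037097 and 7816656 UMIs in nuclei. The genes and lists were chosen with earlier results of these data known. Genes are named that had at least 100 CPM and 20 UMIs in a type of at least 2 libraries, their chain partners, and those past the fold between libraries. Alternatives changed the filters, clustering, naming, scaling, depth and call rule. Gene positions are from GENCODE vM21 (GRCm38). A few single genes are not reported here. The code was tested on simulated data with known folds.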

Additional observations from a re-analysis of the deposited data

How the results depend on the processing

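A set of 30 results (family and single-gene ratios and counts past the fold) was recomputed under alternatives, with 364 of 464 values within the main counting interval or, for counts, within 1.5 times. The levels, pathway counts and cluster counts were not. Leaving out nuclei with recurring cell labels was chosen after the data were seen, as were putting back the unnamed sub-clusters and leaving out the Slc7a10 or the Apln cluster. With 1 library a group, no replicate could be left out. No paired analysis was possible because each group is 1 library with no replicate number. The spread between animals is not known, the fibroblast-like, smooth muscle-like and immune-like groups were small, and the intervals cover counting error only. The cause of the shifts below was not tested.

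For collagen IV, endothelial-like over adipocyte-like in the untreated library, the log2 ratio was 2.30 with at least 500 genes a nucleus, 2.50 with the profile of low-gene barcodes subtracted, 2.30 without mitochondrial UMIs in the denominator and 2.14 with the sub-clusters put back. Collagen VI, pericyte-like over endothelial-like, was 6.97 with at most 10% mitochondrial UMIs and 5.87 without doublet removal. The fibrillar collagens, fibroblast-like over pericyte-like, were 0.22 with at least 500 genes, 0.35 at a clustering resolution of 1 and 3.48 with nuclei named one by one, and had no value without doublet removal. The balance of Col4a1 and Col4a2 between endothelial-like and adipocyte-like nuclei was 0.61 with at least 500 genes.

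Collagen IV, denervated over untreated, in endothelial-like nuclei was 0.83 with at least 500 genes, 0.14 without doublet removal, 0.22 with median-ratio and 0.22 with trimmed-mean scaling, 0.25 against the sham library, 0.22 with thinned nuclei, 0.061 without the Apln cluster, and reversed to -0.014 with the sub-clusters put back. In adipocyte-like nuclei it was 1.55, 0.20 and 0.58 with at least 500 genes, against the sham library and with thinned nuclei, and reversed to -0.042 without the Slc7a10 cluster, where Col4a1 alone reversed to -0.028. In pericyte-like nuclei it was 0.056 with at least 500 genes, -0.46 against the sham library and -0.26 with the sub-clusters put back, and Nid1 reversed to 0.067 with at least 500 genes.

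The counts here and for the sham library below are given without the genes entered or the share of all genes. Both move with the setting and were counted for only some settings, so a count alone is no gain or loss. Of genes higher in the denervated than in the untreated library, endothelial-like nuclei had 5 with at least 500 genes, 5 with thinned nuclei and 19 with the sub-clusters put back, and adipocyte-like nuclei had 11 with thinned nuclei. Of genes lower in it, endothelial-like nuclei had 1 with at least 500 genes, with at most 10% mitochondrial UMIs, with the low-gene profile subtracted, against the sham library, at a log2 ratio of 0.58 and without the Apln cluster. Adipocyte-like nuclei had 2 with at least 500 genes and against the sham library, and 1 with the low-gene profile subtracted and with thinned nuclei. The 2 with at least 500 genes are of 41 entered, where 12.2% of all genes were lower. Pericyte-like nuclei had 0 higher with at least 500 genes, with the collagen and laminin genes left in the clustering, with libraries clustered together and with either scaling, 2 with at most 10% mitochondrial UMIs, with nuclei named one by one, with the low-gene profile subtracted and with the sub-clusters put back, 3 with thinned nuclei, and 4 against the sham library, with no minimum of UMIs and at a log2 ratio of 0.58. They had 1 lower at a log2 ratio of 0.58 and with the sub-clusters put back.

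Of genes higher in the sham than in the untreated library, endothelial-like nuclei had 3 without doublet removal and 1 with thinned nuclei, adipocyte-like nuclei 2 without the Slc7a10 cluster, and pericyte-like nuclei 1 with the genes left in the clustering, with thinned nuclei and with the sub-clusters put back, and 4 at a log2 ratio of 0.58. Of genes lower in it, endothelial-like nuclei had 1 with at least 500 genes and with at most 10% mitochondrial UMIs, and adipocyte-like nuclei 3 without doublet removal and without mitochondrial UMIs in the denominator, 10 at a log2 ratio of 0.58 and 8 without the Slc7a10 cluster. The 2 scalings shifted all log2 ratios of a type by at most 0.101 in size.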

Other observations

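Schwann-like nuclei, which cover the nerve fibres of the tissue and numbered 29, 133 and 48 in the untreated, sham and denervated library, also carried collagen and laminin genes. Col27a1 was 1114, 2454 and 1845 CPM there, on 29, 210 and 56 UMIs. Col1a2 was 1345, 608 and 2636, Col3a1 1844, 865 and 791 and Lama2 461, 444 and 264. Col15a1 was 615, 199 and 560.1. The fibroblast list in these nuclei was at 0.535%, 1.06% and 0% of its fibroblast-like level. With 26031, 85576 and 30351 UMIs in these nuclei, such shares rest on very few UMIs and do not show that fibroblast RNA was absent.

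In the sham library a sub-cluster of 189 pericyte and smooth muscle nuclei, left unnamed since its 10 leading genes held 2 markers of another list and 0 of its own, held Col4a1 at 1895, Col4a2 at 1249.7, Col6a3 at 588, Col8a1 at 155 and Lama4 at 392 CPM. Barcodes under 200 genes held Col4a1 at 411, 488 and 826, Lama4 at 366, 143 and 620.3 and Col27a1 at 88.6, 10.1 and 79.1 CPM in the untreated, sham and denervated library. They numbered 1871, 988 and 5358, and held the endothelial list at 7082, 6299 and 13558 CPM, highest in the denervated library.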
